A study of Rattus norvegicus with 48 samples.

Results

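A set of 79 genes stood at least 2-fold higher in the liver of rats given 400 mg/kg myclobutanil than in vehicle livers, out of 32545 genes counted. The members were selected on the liver values of those 2 groups: a mean of at least 1 CPM (a library's reads for a gene, scaled to a common total of gene reads) over the 12 libraries, a difference in mean log2(CPM + 0.5) of at least 1, and every 400 mg/kg library above every vehicle library. Of the 11315 genes that reached the CPM floor, 121 had the required difference, 80 of these had groups that did not overlap, and 1 gene left out by name brought the set to 79. The difference between 400 mg/kg and vehicle in liver is therefore a description of how the set was made and carries no test. Levels at 30 and 150 mg/kg, and all levels in the testis, had no part in the choice.

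The samples came from adult male Crl:CD (SD) Sprague-Dawley rats aged 8 to 10 weeks at the start, which received myclobutanil in corn oil by gavage once a day for 14 days. The 4 liver groups and the 4 testis groups were vehicle, 30, 150 and 400 mg/kg, with 6 libraries each and 48 in all, and every group, vehicle included, received corn oil at 4 ml/kg. Libraries are named by their title number, 2403 to 2426, and both tissues use every number. Whether a number stands for 1 animal is not stated, so the p-values measure only the spread between libraries, which may be technical. Testis libraries 2407 and 2408 carry a vehicle title and a dose of 0 beside a label that names myclobutanil; they were kept as vehicle.

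Myclobutanil is a triazole fungicide, a class of compounds that block a sterol demethylase of the cytochrome P450 family in fungi. In rodent liver, triazoles are known to act on the nuclear receptors CAR and PXR, which switch on genes for cytochrome P450 enzymes, conjugating enzymes and transporters. These receptors have long been studied in the liver because the enzymes they control clear drugs, steroids and other foreign compounds. The deposited files identify genes by Ensembl ID alone, and 0 of the 32545 IDs matched a symbol in the reference table. No name, pathway, cell type marker or sequence was therefore assigned to a member. The members are numbered 1 to 79 by falling difference at 400 mg/kg, and the IDs are given for members 1 and 2.

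The liver libraries held 31.8 to 49.1 M gene reads each, and the testis libraries 30.9 to 49.2 M. Liver depth was not spread evenly over the doses. Vehicle and 30 mg/kg each had 5 liver libraries of 31.8 to 37.0 M reads, 150 and 400 mg/kg each had 5 of 38.5 to 41.6 M, and each dose had 1 deeper library of 45.0 to 49.1 M (2408, 2414, 2415 and 2421). The share of liver reads assigned to no gene moved with the doses in the same way. It averaged 41.5% (SD 1.03) in vehicle livers, 41.3% (SD 1.002) at 30, 43.5% (SD 0.883) at 150 and 44.3% (SD 1.03) in the 400 mg/kg livers, n = 6 each, and its part in the results was not tested. Depth class and dose cannot be told apart for 30 against 150 mg/kg, or for vehicle against 400 mg/kg, outside those 4 libraries. Log2 CPM correlated at 0.985 or more between liver libraries and at 0.0475 to 0.0954 between liver and testis over 14733 genes. In bulk tissue, a change in the cells present and a change in RNA per cell cannot be told apart.

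The 79 members differed widely in liver read level. Their mean level with vehicle ran from 0.109 to 1877 CPM with a median of 7.79, and at 400 mg/kg from 2.06 to 6598 CPM with a median of 23.9. The log2 difference at 400 mg/kg ran from 1.01 to 6.21 with a median of 1.58, beside a median of 0.07 over the 11315 genes. It was at least 2 in 22 members, at least 3 in 12 and at least 4 in 5. The members nearest the limit had differences of 1.01, 1.02 and 1.02, and the 3 genes just outside it had 0.99, 0.99 and 0.99. At the narrowest, the lowest 400 mg/kg library stood only 1.006 times above the highest vehicle library. A further 41 genes had the difference and the floor but overlapped.

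The share of all gene reads taken by the members was 0.897% ± 0.106 with vehicle, 1.27% ± 0.179 at 30 mg/kg, 1.97% ± 0.207 at 150 mg/kg and 3.29% ± 0.345 at 400 mg/kg (SD, n = 6 each). The livers at 150 mg/kg, from 1.72% to 2.32%, all lay above those at 30 mg/kg, which reached 1.503%. A few members carry most of this share of reads. The 4 with the most reads, members 22, 27, 28 and 51, held 54.7% of the summed CPM at 400 mg/kg and 59.6% of it with vehicle. Member 27 took the most reads, at 1877 CPM with vehicle, 2814 at 30, 4381 at 150 and 6598 at 400 mg/kg on average. At the other end, 23 members stayed under 10 CPM on average at 400 mg/kg.

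**Figure D1:**
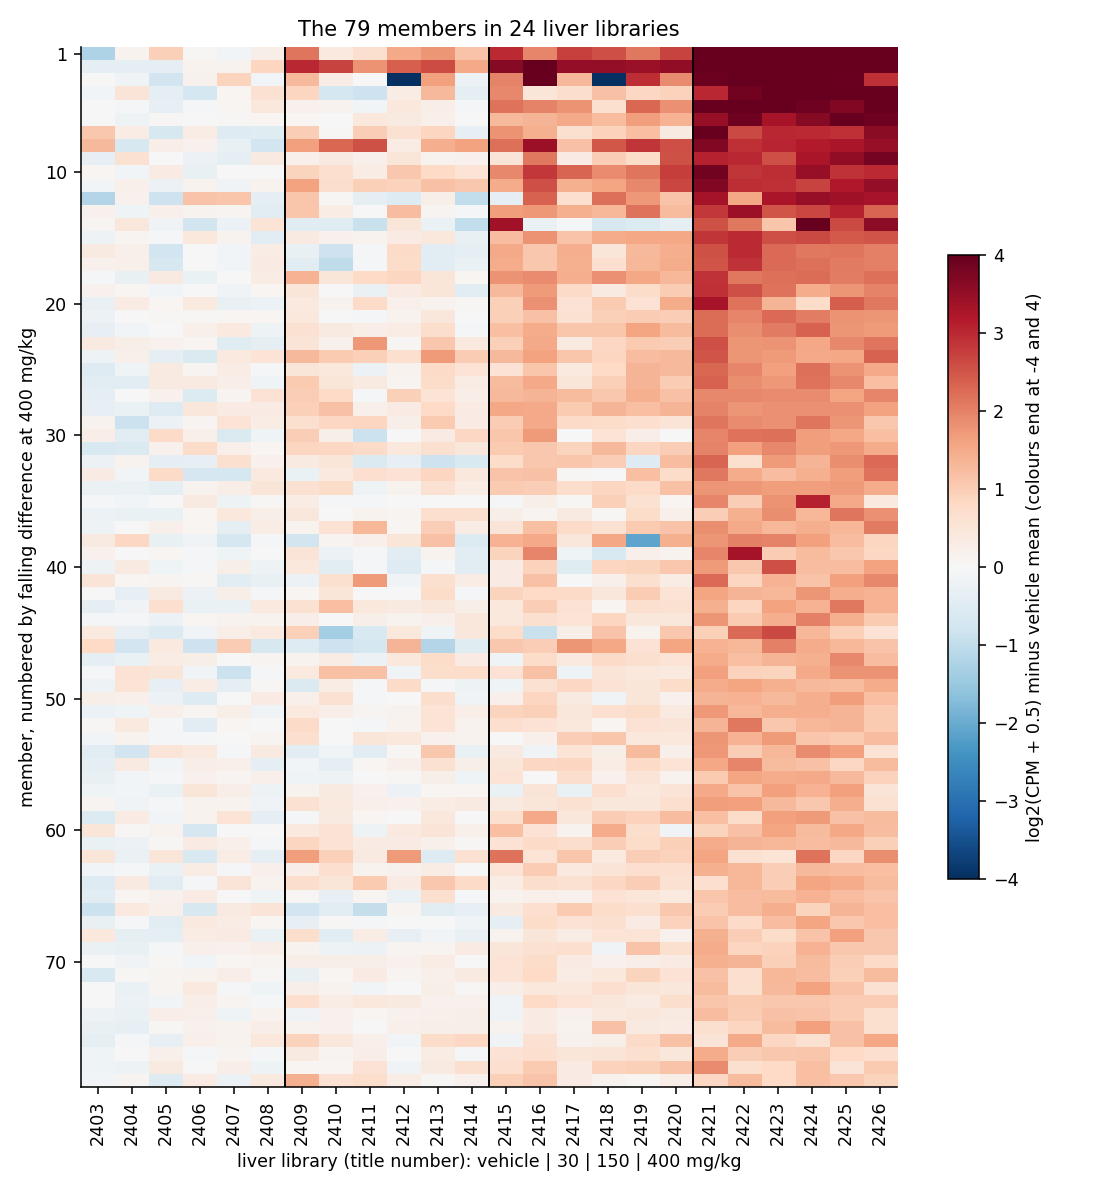
Heat map of the 79 members (rows, numbered by falling difference at 400 mg/kg) in the 24 liver libraries (columns, by dose and title number); colour gives log2(CPM + 0.5) minus the vehicle mean. Colour deepens from 30 to 150 to 400 mg/kg for most members, and single cells stand apart, such as member 3 in libraries 2412 and 2418 and member 14 in library 2415.

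Member 1, ENSRNOG00000013241, had the widest difference at the top dose. Its level was 0.801 to 5.37 CPM with vehicle (median 2.75), 3.53 to 13.02 at 30 mg/kg (median 7.19), 11.4 to 23.6 at 150 mg/kg (median 18.5) and 156 to 277 at 400 mg/kg (median 237). Vehicle and 30 mg/kg overlapped, as did 30 and 150 mg/kg, while all 400 mg/kg livers lay far above the rest. On the log2(CPM + 0.5) scale it had covered 20.4% of its final difference at 30 mg/kg and 40.5% at 150 mg/kg. In CPM, only 6.47% of its gain was present at 150 mg/kg.

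Member 2, ENSRNOG00000020775, was higher at every dose step. Its level was 24.4 to 58.9 CPM with vehicle (median 30.4), 93.7 to 266 at 30 mg/kg (median 187), 357 to 865 at 150 mg/kg (median 377) and 795 to 2175 at 400 mg/kg (median 1143). No vehicle liver reached the lowest 30 mg/kg liver, and no 30 mg/kg liver reached the lowest at 150 mg/kg. The 150 and 400 mg/kg groups overlapped through library 2416, at 865 CPM, and the lowest 400 mg/kg library at 795 CPM. At 30 mg/kg member 2 had 45.0% of its final log2 difference, and at 150 mg/kg 71.7%.

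Across the set, the intermediate doses filled the gap in order. The median log2 difference from vehicle was 0.25 at 30 mg/kg and 0.72 at 150 mg/kg, beside medians of -0.02 and -0.03 over the 11315 genes. In 58 of 79 members the 4 means rose in the order of dose, and the mean at 150 mg/kg was above that of vehicle in 79. Both contrasts share their vehicle libraries with the rule, so they are given as levels with no test.

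Members reached a median of 15.8% of their final log2 difference at 30 mg/kg, with quartiles of 3.67% and 28.4%, and 45.7% at 150 mg/kg, with quartiles of 34.5% and 55.0%. At 150 mg/kg, 31 members had reached at least 50%, 42 between 25% and 50%, and 6 under 25%. The 2-fold mark was already passed by 26 members at 150 mg/kg and by 5 at 30 mg/kg, which were members 1, 2, 8, 11 and 24. In 61 members the largest of the 3 log2 steps was that from 150 to 400 mg/kg, in 13 that from 30 to 150, and in 5 that from vehicle to 30. The vehicle and 400 mg/kg libraries chose the members, which can widen the first and last steps. The steps and the percentages are therefore a description with no test. On the CPM scale, a gain in proportion to dose would put 7.5% of it at 30 mg/kg and 37.5% at 150 mg/kg. The median member had 9.13% and 32.5%, and 51 members lay below proportion at 150 mg/kg while 28 lay above.

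**Figure D2:**
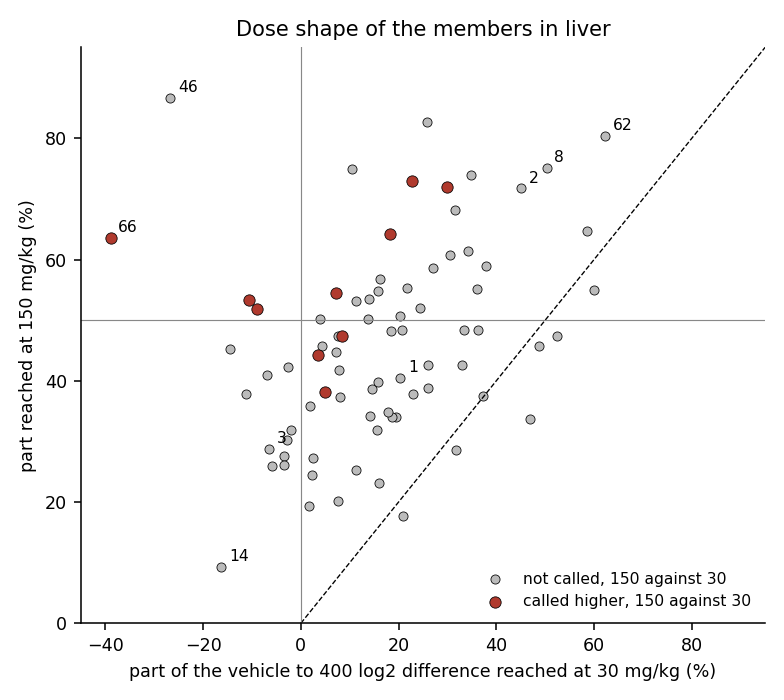
Percentage of the vehicle to 400 mg/kg difference in log2(CPM + 0.5) reached at 30 mg/kg (horizontal) and at 150 mg/kg (vertical), 1 point per member; the dashed line marks equal percentages and red points are members called higher at 150 than at 30 mg/kg. The 73 points above the dashed line had a higher mean at 150 than at 30 mg/kg, and member 14 lies lowest at 9.32%.

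Counts of groups without overlap show the same order. At 30 mg/kg, 4 of 79 members (5.06%) had every library above every vehicle library, against 0.133% of the 11315 genes. At 150 mg/kg this held for 33 members (41.8%), against 0.795% of all genes. All 150 mg/kg libraries lay above all 30 mg/kg libraries in 14 members (17.7%), against 0.292% of all genes, and all 400 mg/kg libraries above all 150 mg/kg libraries in 37 (46.8%), against 4.9%. Of these comparisons, 150 against 30 mg/kg is the only one that shares no library with the rule.

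**Figure D3:**
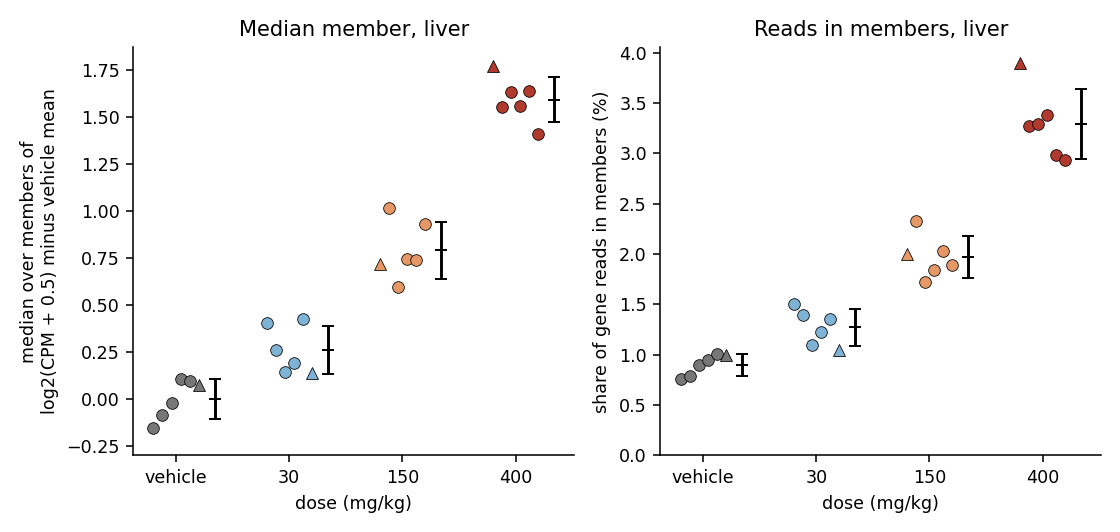
Left, the median over the 79 members of log2(CPM + 0.5) minus the vehicle mean in each liver library; right, the percentage of gene reads in the members; points are libraries, triangles the deepest library of each dose, and bars mean ± SD (n = 6). In the left plot, the groups run from 0.14 to 0.42 at 30 mg/kg, 0.59 to 1.02 at 150 mg/kg and 1.41 to 1.77 at 400 mg/kg without overlap. Vehicle and 400 mg/kg libraries chose the members, so only 150 against 30 mg/kg is free of the rule.

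With the members summarised by their median, the liver libraries of each dose lay apart from those of the other doses. The rule itself fixed this for 400 mg/kg against vehicle. Only 150 against 30 mg/kg shares no library with the rule. The median member stood 0.14 to 0.42 above the vehicle mean in the 30 mg/kg libraries, 0.59 to 1.02 at 150 mg/kg and 1.41 to 1.77 at 400 mg/kg, on the log2 scale. Library 2416 was highest at 150 mg/kg and library 2417 lowest. Library 2421, the deepest at 400 mg/kg, was the highest of its dose and held the top value in 30 of 79 members. Among the 4 deepest libraries, 1 per dose, 46 members were higher at 30 mg/kg than with vehicle, 65 higher at 150 than at 30 mg/kg, and 75 higher at 400 than at 150 mg/kg. Between the deepest 150 and 30 mg/kg libraries, 34.6% of the 11315 genes were higher at 150 mg/kg. The counts of 46 and 75 use libraries of the rule and have no share over all genes beside them. Each of these counts compares 1 library with 1 other. Within the 5 and 5 shallower libraries the median member stood 0.28 above vehicle at 30 mg/kg, and within the 5 and 5 middle libraries 0.80 above 150 mg/kg at 400 mg/kg.

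The rise from 30 to 150 mg/kg was tested across 13275 genes with edgeR's quasi-likelihood test. The contrast itself compares libraries that the rule had not used, but the fit took its filter, scaling and dispersion from all 24 livers, vehicle and 400 mg/kg included. The 10 members numbered 5, 6, 10, 15, 16, 17, 18, 21, 22 and 66 were called higher at an adjusted p under 0.05, and 0 were called lower. That is 12.7% of the 79 members, against 0.113% of all genes called higher (15) and 0.0377% called lower (5). The fitted log2 fold change was positive in 72 members, with a median of 0.55 beside -0.0047 over all genes. At an unadjusted p under 0.05, 46 members were higher and 0 lower, beside 1591 of the 13275 genes in either direction. DESeq2 called 22 members higher, beside 49 of 20602 genes. The other alternatives gave 7 to 14 members, beside 9 to 23 of all genes. With only the 12 livers at 30 and 150 mg/kg fitted (78 members tested), 7 were called, beside 9 genes in all. A term for depth class gave 7, beside 21 genes in all, and leaving out the deepest libraries gave 7, beside 9. The fit with the depth term links these doses only through the deepest libraries. It therefore cannot decide whether depth bears on these calls. Under it the SE for member 1 was 0.583, against 0.297.

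Member 6 had the largest edgeR fold change among those called, from a base of low counts. Its level was 0.106 to 0.320 CPM at 30 mg/kg and 0.961 to 1.43 at 150 mg/kg, between 0.029 to 0.143 CPM with vehicle and 5.54 to 9.46 at 400 mg/kg. The groups at 30 and 150 mg/kg did not overlap, and the log2 fold change was 2.57 (SE 0.244, edgeR adjusted p = 2.69e-06). Its vehicle libraries held only 1 to 7 reads each for this gene. On the log2 scale that defined the set, its difference between 30 and 150 mg/kg was 1.24, below the 1.65 of member 5. The size of the edgeR fold change therefore depends on very low levels at 30 mg/kg.

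Member 5 stayed near its vehicle level at 30 mg/kg. It measured 3.05 to 5.42 CPM with vehicle (median 3.85), 3.64 to 5.45 at 30 mg/kg (median 4.48), 6.51 to 21.4 at 150 mg/kg (median 16.2) and 57.4 to 92.5 at 400 mg/kg (median 72.9). Library 2418 was the lowest at 150 mg/kg, and still lay above all 30 mg/kg livers. The log2 fold change from 30 to 150 mg/kg was 1.85 (SE 0.204, edgeR adjusted p = 2.03e-05).

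Member 15 also stayed near its vehicle level at 30 mg/kg. It measured 99.5 to 180.3 CPM with vehicle, 111 to 181 at 30 mg/kg, 297 to 473 at 150 mg/kg and 747 to 1062 at 400 mg/kg. Vehicle and 30 mg/kg overlapped almost fully, and the higher doses were each apart from the dose below. Its log2 fold change from 30 to 150 mg/kg was 1.27 (SE 0.134, edgeR adjusted p = 1.10e-05).

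Member 10 had its largest step between 30 and 150 mg/kg. Its level was 0.881 to 1.63 CPM with vehicle, 1.60 to 3.11 at 30 mg/kg, 5.86 to 11.7 at 150 mg/kg and 11.8 to 24.1 at 400 mg/kg. It reached 73.0% of the final log2 difference at 150 mg/kg, and the fold change from 30 mg/kg was 1.82 on the log2 scale (SE 0.207, edgeR adjusted p = 2.15e-05).

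Members 16 and 17 moved through the libraries in step. Member 16 was 37.1 to 81.8 CPM with vehicle, 35.2 to 108 at 30 mg/kg, 88.6 to 183 at 150 mg/kg and 259 to 505 at 400 mg/kg, and its CPM was 2.36 to 3.09 times that of member 17 in each of the 24 livers. Both lay slightly below vehicle on average at 30 mg/kg, at -9.02% and -10.6% of the final difference. Both were high in library 2412 at 30 mg/kg, and both were lowest in library 2418 at 150 mg/kg. Without gene positions, shared sequence or neighbouring genes could not be checked. Their log2 fold changes from 30 to 150 mg/kg were 1.40 and 1.46 (edgeR adjusted p = 0.0137 and 0.00434).

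Member 66 was lower at 30 mg/kg than with vehicle on average and higher at 150 mg/kg. It measured 2.04 to 6.07 CPM with vehicle, 1.86 to 4.47 at 30 mg/kg, 5.41 to 9.24 at 150 mg/kg and 8.00 to 12.1 at 400 mg/kg. The contrast of 150 against 30 mg/kg, 1.35 on the log2 scale (SE 0.230, edgeR adjusted p = 0.00674), therefore includes a low 30 mg/kg group, whose difference from vehicle was -0.46.

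Members 18, 21 and 22 were called with fold changes under 1 on the log2 scale. Member 22 was 825 to 1349 CPM with vehicle, 996 to 1673 at 30 mg/kg, 2206 to 3057 at 150 mg/kg and 3381 to 5313 at 400 mg/kg, and all 150 mg/kg livers lay above all at 30 mg/kg. Its log2 fold change from 30 to 150 mg/kg was 0.93 (SE 0.135, edgeR adjusted p = 0.00077). Member 18 also differed by 0.93 (SE 0.187, edgeR adjusted p = 0.0375) and member 21 by 0.79 (SE 0.0928, edgeR adjusted p = 2.50e-05).

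Members 1 and 2 missed the threshold in this comparison, with log2 fold changes of 1.25 (SE 0.297, edgeR adjusted p = 0.0935) and 1.39 (SE 0.292, edgeR adjusted p = 0.0543). Among the alternatives, adjusted p ran from 0.0299 to 0.301 for member 1 and from 0.00934 to 0.181 for member 2. With only the 12 livers compared it was 0.193 and 0.143, and with a term for depth class 0.265 and 0.181. Both passed the threshold when 30 mg/kg library 2409 was left out, at adjusted p = 0.0348 and 0.0324, and with DESeq2, at 0.0299 and 0.00934. Member 2 also passed it without library 2420, at edgeR adjusted p = 0.0496, and among genes of at least 1 CPM, at 0.0465.

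**Figure D4:**
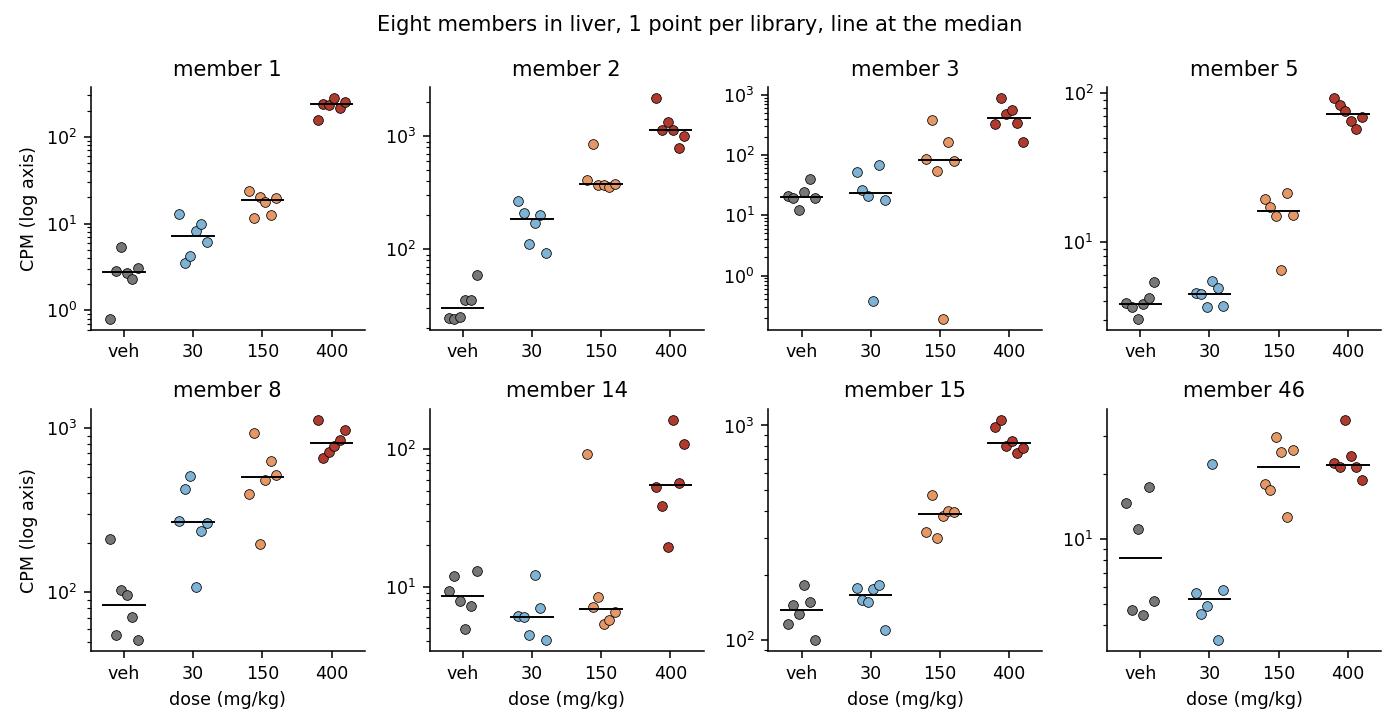
CPM of 8 members in the 24 livers on log axes, 1 point per library, with lines at the group medians. Member 2 steps up at every dose, members 5 and 15 leave the vehicle range at 150 mg/kg, and members 3 and 14 each hold libraries far from the rest of their dose.

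Several members differed strongly between livers of 1 dose. The SD of log2(CPM + 0.5) within a dose had a median of 0.321 to 0.368 over the members, beside 0.147 to 0.161 over the 11315 genes. In 10 members (12.7%) at least 1 library lay more than 1.5 from its dose median on this scale, against 1.99% of all genes.

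Member 3 was near 0 in 2 livers. Library 2412 at 30 mg/kg had 0.375 CPM and library 2418 at 150 mg/kg 0.192 CPM, while the other 22 livers had 12.3 CPM or more. The other 30 mg/kg livers reached 67.8 CPM, the other 150 mg/kg livers 378 CPM and the 400 mg/kg livers 166 to 875 CPM. The testis libraries 2412 and 2418 were also the lowest 2 of 24 for this member, at 0.495 and 0.830 CPM against 1.38 to 5.71 in the others. With all libraries member 3 had -6.44% of its final difference at 30 mg/kg and 28.8% at 150 mg/kg, and without those livers 14.3% and 58.1%.

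Member 14 was high in 1 liver at 150 mg/kg. Library 2415 had 92.9 CPM and the other 5 had 5.38 to 8.42, within the vehicle range of 4.94 to 12.97. At 400 mg/kg it ran from 19.4 to 163 CPM. It had 9.32% of its final difference at 150 mg/kg, and -13.7% without library 2415.

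Member 8 had already covered 50.3% of its difference at 30 mg/kg. Its level was 51.0 to 211 CPM with vehicle, 107 to 508 at 30 mg/kg, 196 to 939 at 150 mg/kg and 653 to 1121 at 400 mg/kg. Neighbouring doses overlapped throughout. Member 46, in turn, stood at 12.6 to 29.5 CPM at 150 mg/kg and 18.7 to 35.4 at 400 mg/kg, so that 86.6% of its difference was present at 150 mg/kg. At 30 mg/kg 5 of 6 livers were at 3.41 to 5.82 CPM and library 2412 at 22.2.

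In the testis, the members did not share an expression level. Their mean over the 24 testis libraries ran from 0 to 197 CPM with a median of 2.84. It was at least 1 CPM in 51 members, at least 10 in 25 and at least 100 in 6, and under 1 CPM in 28. With vehicle, 57 members were higher in liver and 22 higher in testis. Of the first 10 members, 6 were under 1 CPM in testis, and members 3, 5, 8 and 9 averaged 2.45, 21.1, 9.65 and 1.20 CPM. Member 4 had 0 reads in all 24 testis libraries, while its liver levels were 0.511 to 2.04 CPM with vehicle and 13.1 to 46.4 at 400 mg/kg. Member 1 reached at most 0.171 CPM and member 2 at most 0.0609 CPM in any testis library.

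Other members were mainly testis transcripts by level. Member 68 had 166 to 239 CPM in testis, and in liver 2.09 to 3.98 CPM with vehicle and 5.08 to 10.0 at 400 mg/kg. Member 35 averaged 59.7 CPM in testis, and in liver 0.205 CPM under vehicle but 2.06 CPM at the top dose. Among the members called from 30 to 150 mg/kg in liver, member 5 had 18.3 to 23.5 CPM in testis and member 15 had 49.9 to 133 CPM. CPM is not scaled by gene length, so a higher CPM in 1 member than in another is a larger share of reads and not a higher level of transcript.

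The share of testis reads in the members differed between doses by less than its SD, at 0.147% ± 0.00631 with vehicle, 0.147% ± 0.0103 at 30, 0.149% ± 0.0114 at 150 and 0.144% ± 0.00701 at 400 mg/kg (SD, n = 6 each). Of the 66 members with enough testis reads to be tested, 0 were called higher at 400 mg/kg than with vehicle, against 1.85% of the 17261 genes tested, and 2 were called lower, against 1.47%. At an unadjusted p under 0.05, 8 members were higher and 7 lower, beside 3403 of the 17261 genes in either direction. The median log2 fold change was -0.02, and 29 of 66 were positive. The other 13 members, with 0 to 113 testis reads in all 24 libraries, were removed by the filter on low counts. Without that filter 78 members were tested, and again 0 were called higher and 2 lower; member 4, with 0 reads, had no test.

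The members called lower in testis were 26 and 41, which is 2 of 66 beside 254 of all 17261 genes. Member 26 averaged 5.71 CPM (SD 0.737) in the vehicle group, against 4.36 CPM (SD 0.367) in the 400 mg/kg group, a log2 fold change of -0.39 (edgeR adjusted p = 0.0279). Member 41 averaged 12.9 CPM (SD 1.12) and 9.59 CPM (SD 1.73) in the same groups of 6, a log2 fold change of -0.42 (edgeR adjusted p = 0.0191). Neither call was present with a term for depth class, without the deepest libraries or without testis library 2423, where 0 members were called lower. The classes were set by the liver library of the same number. In testis the middle class, at 30.9 to 38.3 M reads, overlapped the shallow class, at 32.0 to 37.4 M. Outside the deepest libraries the class followed dose, and the fit with this term called 0 genes. It therefore cannot decide whether depth bears on these calls. A single member was called lower when any 1 of vehicle libraries 2403, 2404, 2405, 2406 and 2408 or 400 mg/kg library 2426 was left out.

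From 30 to 150 mg/kg in testis, 0 of 66 members were called higher and 0 lower, against 0% and 0.0116% of the 17261 genes (0 and 2). At an unadjusted p under 0.05, 3 members were higher and 1 lower, beside 1827 of the 17261 genes in either direction. The log2 fold changes ran from -0.63 to 0.55, with a median of 0.02.

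The difference between the tissues in the step from 30 to 150 mg/kg was tested over 18221 genes, with both tissues in 1 model. It was called higher in liver for 7 of 79 members (8.86%), against 0.104% of all genes, and 0 were called in the other direction, against 0.0549%. Member 6 differed by 2.44 (SE 0.309, edgeR adjusted p = 4.06e-06) and member 5 by 1.76 (SE 0.212, edgeR adjusted p = 2.56e-06). Members 13, 15, 18, 21 and 22 differed by 1.57, 1.23, 1.09, 0.65 and 1.04, with edgeR adjusted p of 0.0142 or less. All but member 13 were also called in liver alone. Member 13 had a fold change of 1.10 in liver (edgeR adjusted p = 0.0552) and -0.44 in testis (edgeR adjusted p = 0.269), so its difference takes in both. The difference at 400 mg/kg was not tested between tissues, because the liver side had chosen the members. For members nearly absent from testis the fitted difference is imprecise, as in member 1 at 0.95 (SE 1.499).

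**Figure D5:**
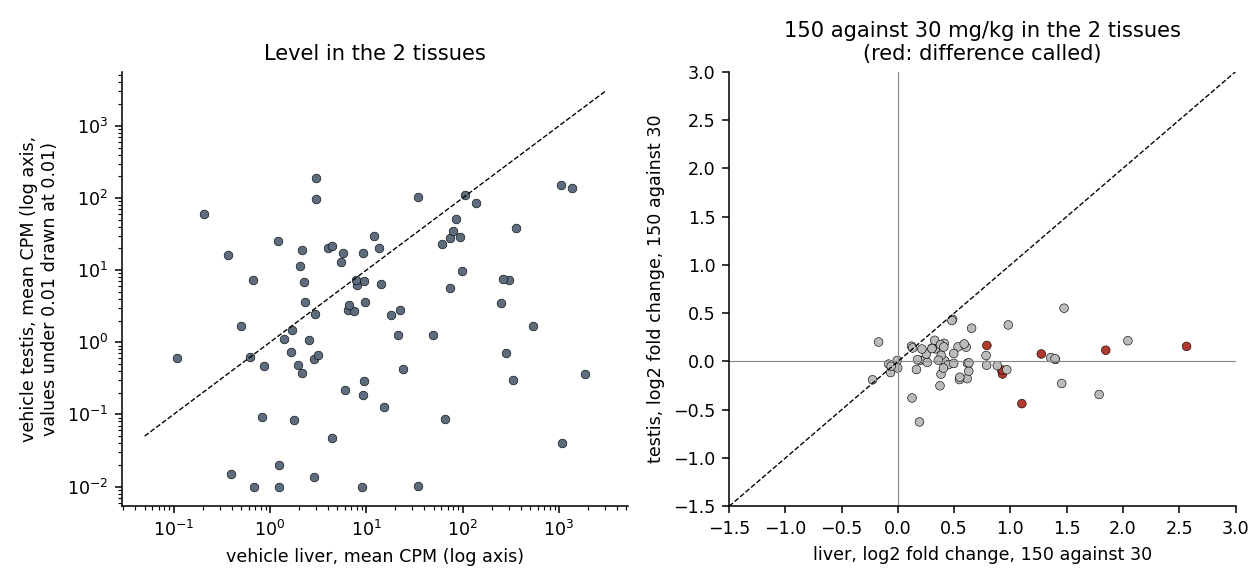
Left, mean CPM of each member with vehicle in liver and in testis on log axes, with a dashed line of equal levels; right, edgeR log2 fold change from 30 to 150 mg/kg in liver and testis for the 66 members tested in both, with red points where the tissues were called different. In the right plot, testis values stay between -0.63 and 0.55 while liver values reach 2.57.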

How the data were processed

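Polyadenylated RNA of rat liver and testis was sequenced from libraries made with a stranded kit, per the labels' protocols. Each deposited file gives raw whole-number counts of reads by Ensembl gene, made with CASAVA 1.8, HISAT2 and HTSeq 0.6.1 per the submitters' processing notes. Which build and strand setting were used is not given in the sources used here. All 5 lines per file that belong to no gene were left out of all totals (39.8% to 46.1% of liver reads, 34.9% to 36.9% of testis reads). Reads with several alignments fall there, so genes with near-identical copies are uncertain.

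CPM was computed over gene reads, with a pseudocount of 0.5 on the log2 scale. Members and lists were chosen with earlier results of these data known. The gene lists, cell type markers and promoter motifs planned could not be applied, as no ID has a name. Named genes were to be those with a symbol; the IDs of members 1 and 2 stand instead, and other members were singled out after their values were seen.

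Tests used edgeR 4.0.16 in R 4.3.3 (filterByExpr, TMM, robust quasi-likelihood fit, 2-sided, Benjamini-Hochberg over all genes tested) on all 24 libraries of a tissue or all 48, and were checked on simulated counts. Libraries of 1 group differed beyond sampling noise, with chi-square per degree of freedom of at least 6.95. Alternatives were DESeq2 1.42.0, RLE factors, other filters and pseudocounts, fewer libraries and a depth term. The depth classes were set on the liver libraries and applied to the testis libraries of the same number.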

Additional observations from a re-analysis of the deposited data

Results flagged for a closer look

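Within groups of 6, a library stood apart from the other 5 by Dixon's test in 9 of 32 tests, where chance flags about 1 in 20. For library totals these were, in liver, vehicle 2408 at 49.1 M reads, 30 mg/kg 2414 at 47.4 M, 150 mg/kg 2415 at 46 M and 400 mg/kg 2421 at 45 M. In testis they were vehicle 2408 at 45.5 M reads, 150 mg/kg 2415 at 49.2 M and 400 mg/kg 2421 at 43.1 M. For member 2 they were liver 2408 at 58.9 CPM among the vehicle livers and liver 2416 at 865 CPM among those at 150 mg/kg.

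The step from 30 to 150 mg/kg differed between liver and testis in 7 members by an interaction test in edgeR. The log2 difference was 1.76 for member 5, 2.44 for member 6, 1.57 for member 13, 1.23 for member 15, 1.09 for member 18, 0.65 for member 21 and 1.04 for member 22.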

How the results depend on the processing

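Of the alternative values for the set's size, its dose shape and its counts of calls, 13 moved from the reported one. The other 131 stayed within 1.5 times a count or 1 SD of a dose-shape value. They include counts of 0 calls that stayed at 0. For liver 150 against 30 mg/kg, members called higher rose from 10 to 22 with DESeq2, while all genes called higher rose from 15 to 49. Leaving out each library gave 8 to 14 members, beside 11 to 23 of all genes. The filter, scaling, depth-term and subset alternatives gave 7 to 11 members, beside 9 to 21 of all genes. For testis 400 mg/kg against vehicle, members called higher went from 0 to 2 of 63 with only the 12 libraries compared, beside 442 of 16721 genes. They were 0 to 1 on leaving out each library. The 1, of 66 members, was without library 2422, beside 466 of 17355 genes. Members called lower in testis went from 2 to 0 with depth class as a term. That fit called 0 genes in all, and its classes were set on liver depth. Members called lower also went to 0 without the deepest libraries (added after seeing the data) and to 1 without testis 2407 and 2408. Leaving out each library gave 0 to 2 called lower. Causes of these shifts were not tested, except that the smaller fits hold fewer libraries. The set itself held 68 genes with TMM-scaled CPM, 75 to 92 with pseudocounts of 1 or 0.1, 63 with a floor of 5 CPM, 87 with no floor, 94 without the deepest libraries and 79 to 97 on leaving out each library. The median share reached at 150 mg/kg was 44.5% to 49.2% and at 30 mg/kg 15.3% to 18.01% over the alternatives. Liver and testis libraries of 1 number deviated together weakly, with correlations of 0.0607 to 0.214 over 24 pairs (over 0.1 in 23), and 23 of 24 livers correlated best with their own number. With the number as a replicate block, 8 members in place of 7 differed between tissues. Low counts limit members under 1 CPM, where few reads stand behind each vehicle value.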
